A study of Mus musculus with 35 samples.

Results

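AMP-activated protein kinase (AMPK) senses low cellular energy. The active enzyme is a trimer of a catalytic α, a scaffolding β and a nucleotide-binding γ subunit, and it is switched on when an upstream kinase phosphorylates the α subunit. LKB1 does this under energy stress and CaMKK2 when calcium rises. In macrophages AMPK is known for favouring oxidative metabolism and restraining inflammatory output. The 8 genes described here are Prkaa1 and Prkaa2 (catalytic α1 and α2), Prkab1 and Prkab2 (scaffold β1 and β2), Prkag1 and Prkag2 (regulatory γ1 and γ2), Stk11 (LKB1) and Camkk2 (CaMKK2). They were taken by symbol from the 47069 gene identifiers of the expression files, and each symbol matched 1 identifier. Their levels were followed across all 6 treatments in both genotypes, to ask whether the other subunits or the upstream kinases compensate in cells that carry the label AMPKa1-/-.

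The data are RNA-seq of bone marrow-derived macrophages (BMDMs) from C57BL/6 mice, WT or labelled AMPKa1-/-, grown for 5 to 7 days in L929-conditioned medium. Cells were exposed for 24 h to vehicle (DMSO), 100 nM dexamethasone (Dex, a synthetic glucocorticoid), 100 ng/ml lipopolysaccharide (LPS), LPS + Dex, 1 µg/ml DAMPs (damage-associated molecular patterns), or DAMPs + Dex. Each group has 3 libraries except WT LPS, with 2 (replicates 2 and 3), which gives 17 WT libraries and 18 labelled AMPKa1-/-. Replicate numbers come from sets named in the titles (1 to 3 within each genotype), and the study's methods give its replicates in general as cultures from individual mice. Whether the libraries of a set share a mouse is not stated. Whether the WT and the labelled sets were prepared side by side is not given in the sources used here, so genotype and preparation cannot be told apart. The part of Prkaa1 that was deleted is also not given in them, and neither is a promoter, a Cre or a clone.

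Values are FPKM, fragments divided by gene length and by the library total, which allows levels of different genes to be set side by side per length. The totals recovered from the files ran from 15837203 to 31955298 fragments a library. Macrophage transcripts were abundant in every library: the summed level of 8 macrophage markers was 15410 to 40584 FPKM, led by the lysozyme gene Lyz2. Defining markers of other lineages were at or near 0, with at most 0.204 FPKM for the T cell receptor genes Cd3e, Cd3d and Trac and at most 0.475 FPKM for the neutrophil genes Ly6g, Elane and Mpo. The neutrophil list did move with LPS through Camp, an antimicrobial peptide gene: its sum was 113 and 133 FPKM in the WT LPS libraries and 95.7 to 118 FPKM in the labelled ones, against 0.527 to 9.95 and 1.95 to 15.4 FPKM with vehicle. The dendritic cell list moved in the same libraries through Ccr7, a chemokine receptor gene, while Flt3, Zbtb46 and Xcr1 did not exceed 1.56 FPKM anywhere. The T cell list was carried by Cd4, at 0.574 to 34.95 FPKM. Over all treatments together the median neutrophil sum was 11.1 FPKM in the labelled libraries and 1.44 in WT. By treatment it was lower in the labelled libraries with LPS (97.8, WT 123 FPKM) and LPS + Dex (28.0, WT 34.9 FPKM) and higher in the others. The sum of 4 stromal markers was lower in the labelled libraries (median 1.99, WT 6.06 FPKM). The part of either list in the genotype differences below was not tested. All 35 libraries expressed the Y-linked genes Ddx3y, Uty, Kdm5d and Eif2s3y and had at most 0.0283 FPKM of Xist. In bulk RNA, fewer cells of a type and less RNA per cell cannot be told apart.

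Dex and LPS left their known marks. Fkbp5, a classical glucocorticoid target, was 1.60 to 3.34 FPKM with vehicle and 297 to 356 FPKM with Dex. Il1b, a cytokine induced by LPS, was 2.70 to 13.03 FPKM with vehicle and 11233 to 16653 FPKM with LPS. One acute-phase gene, Saa3, took 16.0% to 24.0% of the FPKM sum in LPS + Dex libraries. It took 3.74% to 7.58% with LPS and at most 0.0344% with vehicle. Whether this lowered the FPKM of other genes was not tested. Between LPS + Dex and LPS the median log2 change of the genes tested was -0.03 in WT and 0.01 in the labelled cells. For LPS against vehicle the genes tested had a median log2 change of -0.19 in WT and -0.30 in the labelled cells, and changes with LPS are read against that shift.

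The highest and lowest places in the order of levels were nearly the same in every library, and the middle was not. Averaged over the 35 libraries, Stk11 was the highest at 100.5 FPKM, followed by Camkk2 (52.1), Prkab1 (37.5), Prkag2 (24.8), Prkaa1 (15.7), Prkag1 (10.6), Prkab2 (4.68) and Prkaa2 (0.0439 FPKM). Stk11 exceeded Camkk2 in 34 of 35 libraries, the exception being a WT LPS + Dex library, and Prkaa2 was the lowest in all 35. In the middle of the order Prkag2 moved most: it lay above Camkk2 in 4 libraries and below Prkab2 in 2, both of them LPS libraries. Camkk2 lay above Prkab1 in 28 libraries and below it in 7, Prkag2 lay above Prkaa1 in 24 and below it in 11, and Prkag1 lay above Prkag2 in 8, of which 5 were the LPS libraries. By transcript level, then, α1 and β1 were the major α and β subunits in every library, while the higher γ subunit was Prkag1 in these 8 libraries and Prkag2 in the others. Antisense genes share 43.7% of the exonic bases of Prkag1 and 14.5% of those of Prkag2. Whether counting used strand is not given, and the part of this in the order of the γ genes was not tested.

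**Figure D1:**
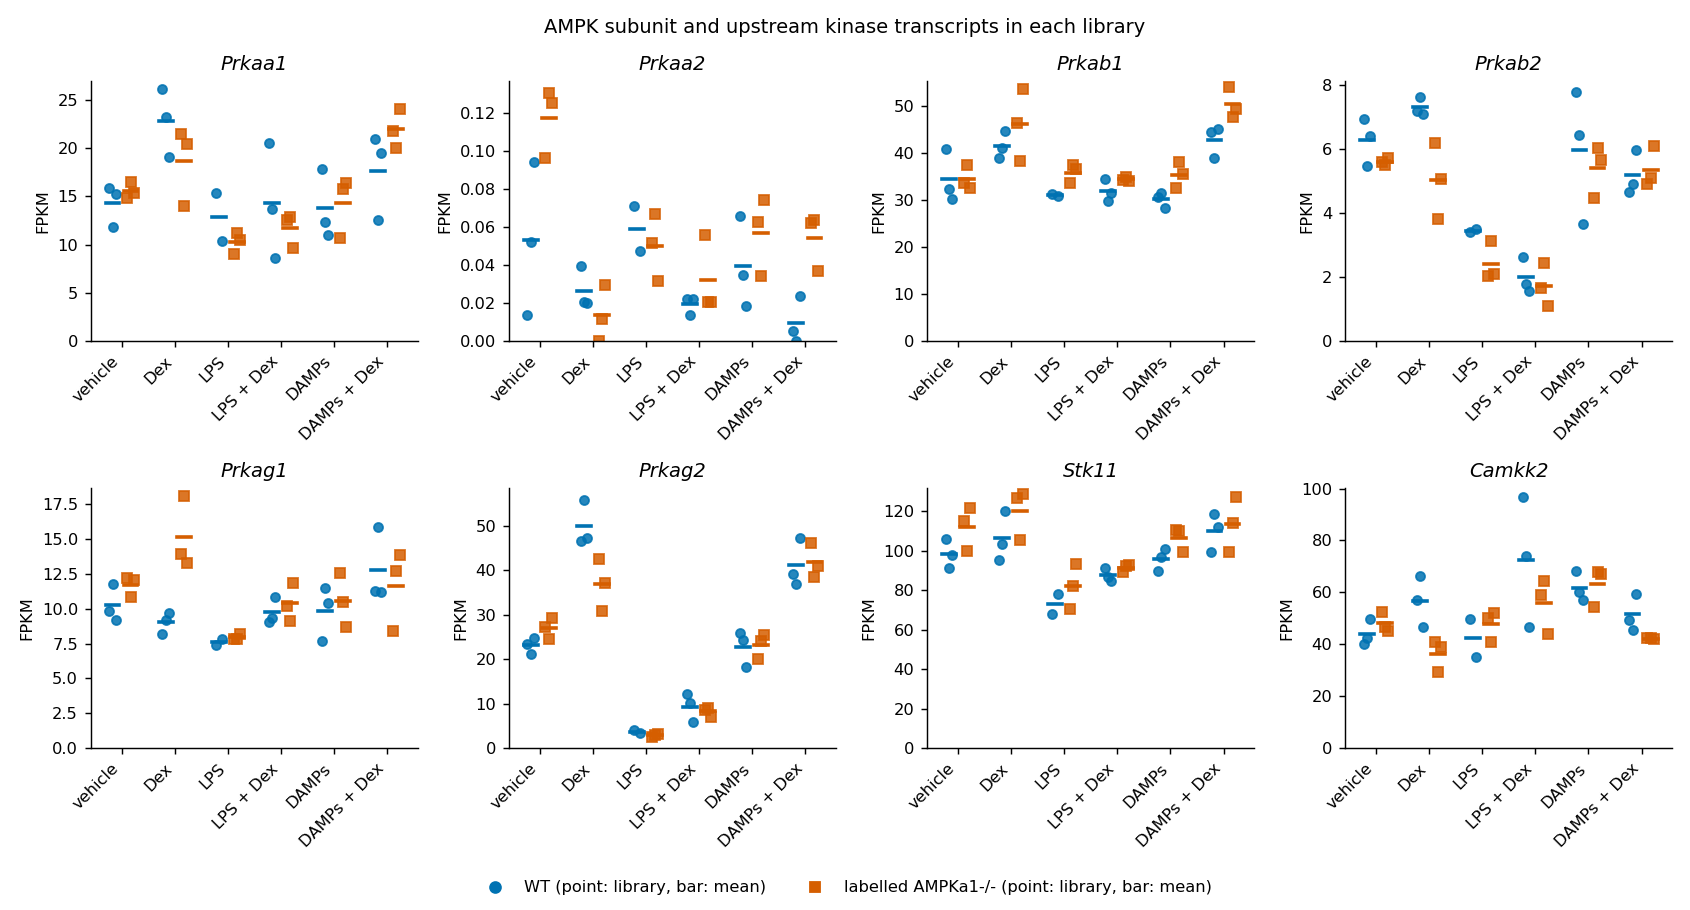
FPKM of each of the 8 genes (vertical axis, linear, own scale in each panel) in the 6 treatments; points are libraries of WT (circles) and of the genotype labelled AMPKa1-/- (squares), bars are group means. Prkag2 falls to 2.61 to 4.05 FPKM in the LPS libraries, and Prkaa1 lies in the same range in both genotypes.

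The sequence shown here is that of the member with the largest responses, Prkag2, which has 3 annotated start sites far apart on the minus strand of chromosome 5. The windows are the 250 bases before each start in RefSeq (GRCm38.p6), written 5′ to 3′ on the gene's strand with each CG dinucleotide in capitals. The first lies at chr5:25100643-25100892 and holds 23 CG with 73.2% G + C, the second lies at chr5:24995754-24996003 inside the gene and holds 4 CG with 48.4% G + C, and the last lies at chr5:24908510-24908759 and holds 34 CG with 77.2% G + C. The median of all 32851 such windows is 6 CG and 52.4% G + C.
Prkag2 distal start: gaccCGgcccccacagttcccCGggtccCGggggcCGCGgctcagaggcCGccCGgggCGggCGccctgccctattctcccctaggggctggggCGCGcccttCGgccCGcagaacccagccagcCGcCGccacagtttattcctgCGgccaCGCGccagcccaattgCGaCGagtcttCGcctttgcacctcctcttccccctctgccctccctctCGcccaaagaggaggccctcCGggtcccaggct
Prkag2 middle start: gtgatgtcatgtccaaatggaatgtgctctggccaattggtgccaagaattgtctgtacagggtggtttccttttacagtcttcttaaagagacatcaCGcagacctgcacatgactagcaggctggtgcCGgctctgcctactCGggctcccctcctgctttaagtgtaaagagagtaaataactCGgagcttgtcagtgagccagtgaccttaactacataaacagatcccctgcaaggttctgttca
Prkag2 proximal start: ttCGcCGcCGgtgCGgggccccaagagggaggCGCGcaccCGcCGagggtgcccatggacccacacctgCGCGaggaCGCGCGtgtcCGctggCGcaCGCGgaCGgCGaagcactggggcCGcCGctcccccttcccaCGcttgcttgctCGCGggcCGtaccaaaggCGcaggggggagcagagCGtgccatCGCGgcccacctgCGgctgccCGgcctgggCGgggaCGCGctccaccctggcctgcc
The distal and proximal windows are rich in CG and the middle one is not, and gene-level FPKM cannot tell which start was used. On either strand none of the 10 windows found for the 8 genes held the full palindrome of a glucocorticoid response element (in 0.387% of all windows), an NF-κB site (1.41%) or the AP-1 site TGANTCA (6.75%), where N is any base. This says only that these letters are not in these windows.

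Prkaa1, the gene named in the label, was not lower in the libraries labelled AMPKa1-/-. It was 15.9, 11.8 and 15.3 FPKM in the WT vehicle libraries and 14.8, 16.5 and 15.4 FPKM in the labelled ones, so the groups overlapped. Over all treatments it ran from 8.59 to 26.1 FPKM in WT (917 to 2903 fragments) and from 9.05 to 24.0 FPKM in the labelled libraries (829 to 2463 fragments). Summed over libraries, Prkaa1 had 27027 of 360256178 fragments in WT and 26898 of 375200051 in the labelled libraries. The difference averaged over 5 treatments was 0.00 on the log2 scale (labelled minus WT, 95% interval -0.29 to 0.30, n = 3 set means against 3, limma adjusted p = 0.99). Without set WT1, the set with the highest Prkaa1, it was 0.16 (adjusted p = 0.15). None of the 4606 sequence words of 50 bases in Prkaa1 transcripts occurred in another gene, and no other annotated exon overlaps its exons (GRCm38, chromosome 15, 5143861 to 5181899, plus strand). A fall in Prkaa1 RNA was therefore not seen at the level of the whole gene, where the position of the fragments within it is lost. All groups of this genotype are called labelled AMPKa1-/- here, and directions between genotypes rest on that label.

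The neighbours of Prkaa1 were also counted. Of 39 genes of the files within 2 Mb on either side, 14 were expressed enough to test, and 0 were called (1 at an unadjusted p under 0.05) in the averaged comparison, in which 2.47% of all 11354 genes tested were (280 genes, limma, Benjamini-Hochberg adjusted p under 0.05). The median log2 difference of the 14 was -0.08.

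Prkaa2, the other catalytic subunit, was close to absent in both genotypes. It ran from 0 to 0.0942 FPKM in WT (0 to 15 fragments) and from 0 to 0.130 FPKM in the labelled libraries (0 to 21 fragments), against 829 fragments or more of Prkaa1. With vehicle, 2, 7 and 15 fragments were counted in WT and 18, 19 and 21 in the labelled libraries, so that all labelled values lay above all WT values. The vehicle groups of 13.9% of the 11354 genes tested did not overlap between genotypes, and Prkaa2 is not among these genes. The Prkaa2 share of the α transcripts (Prkaa1 + Prkaa2) was 0.379% ± 0.269 (SD, n = 3) in WT vehicle and 0.746% ± 0.0868 (SD, n = 3) in labelled vehicle. With Dex the fragments were 5, 3 and 3 in WT and 0, 2 and 5 in the labelled libraries, which overlap. With DAMPs + Dex they were 1, 0 and 6 in WT and 12, 8 and 5 in the labelled libraries, whose FPKM (0.0369 to 0.0634) lay above those of WT (0 to 0.0236). There the groups of 13.3% of the genes tested did not overlap. With LPS, LPS + Dex and DAMPs the groups overlapped, with 21, 11 and 20 fragments summed over the WT libraries and 23, 17 and 33 over the labelled ones. In total 94 fragments of Prkaa2 were found in WT and 163 in the labelled libraries.

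Prkaa2 lies below the filter used for the tests (mean FPKM of at least 1), and was tested only in the fit with no filter. There the averaged difference was 0.03 on the log2(FPKM + 1) scale (limma adjusted p = 0.137), the vehicle difference was 0.09 (adjusted p = 0.126) and the DAMPs + Dex difference was 0.06 (unadjusted p = 0.011, adjusted p = 0.36). The means of the 3 labelled sets all lay above those of the 3 WT sets, with an exact permutation p of 0.1, the smallest a 3 against 3 design allows. Among the genes that passed the filter the set means of 29.9% did not overlap (11.6% higher and 18.3% lower). In the labelled cells Prkaa2 fell with Dex (log2 -0.14, adjusted p = 7.4e-05) and with LPS (log2 -0.09, adjusted p = 0.0025) against vehicle in that fit. The interaction with genotype did not pass for either (adjusted p = 0.24 and 0.446). These values rest on 18, 19 and 21 fragments with vehicle, 0, 2 and 5 with Dex and 9, 9 and 5 with LPS.

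No member was called in the genotype comparison averaged over treatments, which takes the mean of each set over the 5 treatments other than LPS. Of the 7 members tested, 2 had an unadjusted p under 0.05 (Prkab1 and Camkk2), where 21.2% of all genes did. The averaged log2 differences, labelled minus WT, were 0.14 for Prkab1 (SE 0.05, adjusted p = 0.20), 0.18 for Prkag1 (SE 0.08, adjusted p = 0.26), 0.12 for Stk11 (SE 0.06, adjusted p = 0.25) and -0.05 for Prkag2 (SE 0.07, adjusted p = 0.70). They were -0.16 for Prkab2 (SE 0.08, adjusted p = 0.30) and -0.21 for Camkk2 (SE 0.07, adjusted p = 0.14). The 95% intervals of the 7 differences all lay between -0.37 and 0.37. The set means did not overlap between genotypes for 5 of these 7 members (Prkab1, Prkag1 and Stk11 higher, Prkab2 and Camkk2 lower), each with an exact permutation p of 0.1, and for 29.9% of all genes tested (11.6% higher and 18.3% lower).

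Within single treatments, 2 of 42 member comparisons between genotypes were called, and both were in Dex. In that comparison 26.5% of all genes were called, so a count of 2 of 7 is near the background. The groups did not overlap there for 4 of 7 members and for 49.5% of all genes. Prkag1 was 8.16, 9.19 and 9.69 FPKM in the WT Dex libraries and 13.9, 18.1 and 13.3 FPKM in the labelled ones. The labelled libraries were all higher (log2 0.68, SE 0.16, limma adjusted p = 0.0087). Camkk2 was 57.2, 66.3 and 46.5 FPKM in WT Dex and 40.9, 29.3 and 39.1 FPKM in labelled Dex. Here the labelled libraries were all lower (log2 -0.62, SE 0.19, adjusted p = 0.023). Both calls needed labelled Dex replicate 2, which had the highest Prkag1 and the lowest Camkk2: without it the differences were 0.55 (adjusted p = 0.083) and -0.48 (adjusted p = 0.16), and the share of all genes called fell from 26.5% to 2.71%. In the same comparison the log2 differences were -0.48 for Prkab2 (adjusted p = 0.063), -0.43 for Prkag2 (0.060), -0.29 for Prkaa1 (0.35), 0.18 for Stk11 (0.22) and 0.14 for Prkab1 (0.34). Prkag2 was called there with quantile normalization (adjusted p = 0.031), and Stk11 and Prkab1 with median centring (0.043 and 0.030). Camkk2 also lost its call without WT Dex replicate 1 or WT Dex replicate 2 (highest adjusted p over the alternatives 0.21).

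In the other treatments no member was called between genotypes. The share of all genes called there was 0.432% with vehicle, 0.766% with LPS, 0.669% with LPS + Dex, 0.731% with DAMPs and 1.06% with DAMPs + Dex. At an unadjusted p under 0.05 the counts of members were 0, 0, 0, 1 and 1 of 7 in that order, both times Prkab1, where 6.17%, 11.4%, 8.11%, 7.57% and 9.40% of all genes were. The 35 log2 differences in these treatments lay between -0.39 (Prkab2 in LPS) and 0.33 (Prkaa1 in DAMPs + Dex), and the lowest adjusted p was 0.49. With DAMPs, Prkab1 was 30.5, 31.5 and 28.4 FPKM in WT and 32.6, 38.0 and 35.4 FPKM in the labelled libraries. These groups did not overlap (log2 0.22, SE 0.11, adjusted p = 0.66), as for 11.6% of all genes. With LPS the groups of 3 of 7 members (Prkab1, Prkab2 and Prkag2) and of 30.2% of all genes did not overlap. With DAMPs + Dex those of 2 of 7 (Prkab1 and Camkk2) and of 13.3% of all genes did not.

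**Figure D2:**
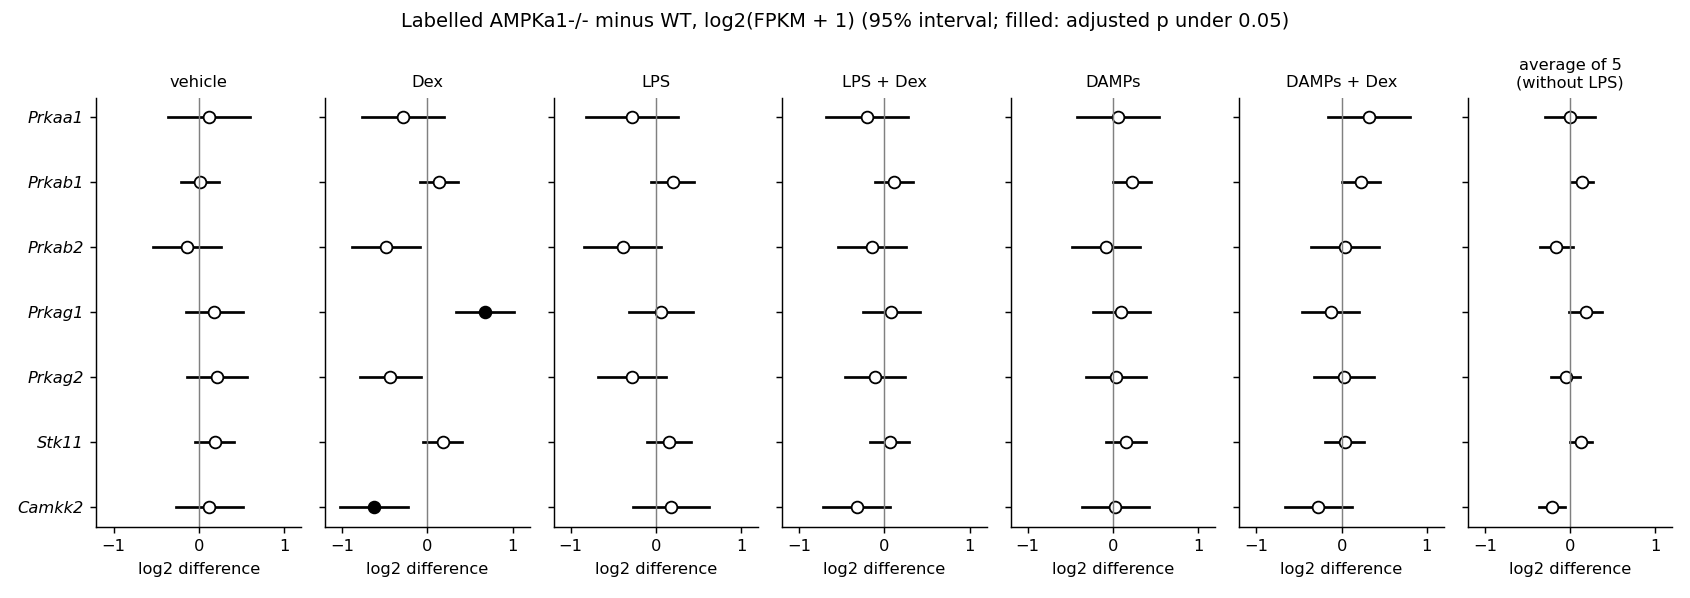
Difference between genotypes (labelled AMPKa1-/- minus WT, log2(FPKM + 1), horizontal axis) for the 7 members tested, with 95% intervals, in each treatment and averaged over 5 treatments; filled points have an adjusted p under 0.05. Only Prkag1 (0.68) and Camkk2 (-0.62) in Dex are filled.

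The response to LPS showed the most member calls in the labelled cells, and in WT as many as LPS + Dex against LPS (3). Against vehicle, 3 of 7 members tested fell in WT (Prkag2, Prkab2 and Stk11) and 5 of 7 fell in the labelled cells (the same 3, Prkag1 and Prkaa1), and 0 rose in either. Among all genes 55.7% were called in WT (35.8% lower, 19.9% higher) and 64.3% in the labelled cells (44.1% lower, 20.2% higher). The median log2 change of the members was -0.38 in WT and -0.51 in the labelled cells, against -0.19 and -0.30 for all genes. The LPS and vehicle groups did not overlap for 4 of 7 members in WT and 5 of 7 in the labelled cells. Among all genes this held for 72.1% and 71.6%.

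Prkag2, whose γ2 subunit binds AMP, ADP and ATP, gave the largest change. It was 23.5, 21.2 and 24.7 FPKM in the WT vehicle libraries and 4.05 and 3.47 FPKM in the WT LPS libraries. The labelled cells had 27.2, 24.6 and 29.3 FPKM with vehicle and 2.61, 2.98 and 3.18 FPKM with LPS. The LPS libraries lay far below the vehicle libraries in both genotypes (log2 -2.34, SE 0.19, adjusted p = 3.7e-11 in WT and log2 -2.84, SE 0.17, adjusted p = 4.8e-14 in the labelled cells). Because FPKM + 1 is used, the fold understates the change of low values. The exons of Prkag2 share 14.5% of their bases with the antisense genes Prkag2os1 and Prkag2os2, and whether counting used strand is not given in the sources used here. Prkag2os2 did not exceed 1.06 FPKM and Prkag2os1 did not exceed 0.696 FPKM in any library.

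Prkab2, the minor scaffold subunit, fell with LPS in both genotypes. It was 6.93, 5.49 and 6.42 FPKM with vehicle and 3.40 and 3.49 FPKM with LPS in WT (log2 -0.71, SE 0.22, adjusted p = 0.0070). In the labelled cells it was 5.59, 5.49 and 5.74 FPKM with vehicle and 2.03, 3.14 and 2.10 FPKM with LPS (log2 -0.96, SE 0.19, adjusted p = 9.9e-05). The groups did not overlap in either genotype, as for 72.1% of all genes in WT and 71.6% in the labelled cells. Prkab1, the major scaffold subunit, did not share this fall: its log2 change was -0.13 in WT (95% interval -0.38 to 0.12) and 0.05 in the labelled cells (-0.17 to 0.28). With libraries centred on one median the labelled value was 0.33 and called higher (adjusted p = 0.0056).

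Stk11 fell modestly, from 91.3 to 106 FPKM with vehicle to 68.1 and 78.2 FPKM with LPS in WT (log2 -0.42, SE 0.13, adjusted p = 0.0053) and from 99.8 to 122 to 70.3 to 93.4 FPKM in the labelled cells (log2 -0.45, SE 0.11, adjusted p = 0.00094). The vehicle and LPS libraries did not overlap in either genotype, which held for 72.1% of all genes in WT and 71.6% in the labelled cells. When libraries were centred on one median the changes were -0.27 (adjusted p = 0.10) and -0.18 (adjusted p = 0.23), so the call rests on the scaling; WT LPS replicate 2 alone also decides the WT call. Prkag1, the γ1 subunit gene, was 7.38 and 7.82 FPKM in WT LPS and 7.80 to 8.20 FPKM in labelled LPS, below every vehicle library (9.17 to 11.7 and 10.8 to 12.2 FPKM). Its fall was called in the labelled cells (log2 -0.51, SE 0.16, adjusted p = 0.0090) and had an adjusted p of 0.081 in WT (log2 -0.38). With median centring the labelled value was -0.23 (adjusted p = 0.36). Prkag1 shares 43.7% of its exonic bases with the antisense gene B130046B21Rik, which did not exceed 0.256 FPKM in any library.

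Prkaa1 fell with LPS in the labelled cells only by a narrow margin, from 14.8 to 16.5 FPKM with vehicle to 9.05 to 11.2 FPKM (log2 -0.56, SE 0.23, adjusted p = 0.038). The call was lost in each of 5 fits that left out 1 of the 6 libraries (all but labelled LPS replicate 2), and in 3 other settings, median centring among them (log2 -0.28, adjusted p = 0.17). In WT its log2 change was -0.16 (adjusted p = 0.63). Camkk2 was level, with log2 changes of -0.07 (95% interval -0.51 to 0.38) in WT and -0.02 (-0.41 to 0.38) in the labelled cells. The difference of the LPS responses between genotypes was not called for any member, nor for any of the 11354 genes by limma; at an unadjusted p under 0.05 it counted 0 of 7 members and 514 genes. With no filter 118 of 27414 genes were called, no member among them.

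Dex added to LPS raised Prkag2 again. With LPS + Dex it was 12.2, 10.1 and 5.83 FPKM in WT and 8.69, 9.14 and 7.08 FPKM in the labelled cells, above every LPS library and below every vehicle library. The rise over LPS was 1.07 in WT (SE 0.19, adjusted p = 5.9e-05) and 1.24 in the labelled cells (SE 0.17, adjusted p = 1.1e-06). In WT it was not called when only the 2 groups compared were fitted (adjusted p = 0.065). Of the 7 members, 3 changed in WT (34.1% of all genes did) and 1 in the labelled cells (37.7%). The LPS + Dex and LPS groups did not overlap for 4 of 7 members in WT and 2 of 7 in the labelled cells. Among all genes this held for 48.4% and 46.4%.

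The other WT changes were smaller. Prkab2 fell further, from 3.40 and 3.49 FPKM to 2.62, 1.79 and 1.57 FPKM (log2 -0.59, SE 0.22, adjusted p = 0.037), with a highest adjusted p of 0.27 over the alternatives. It lost this call without any one of WT LPS replicate 2 or 3 or WT LPS + Dex replicate 2 or 3. The Prkab2 call was also lost with no filter and when only the groups compared were fitted (adjusted p = 0.12). Camkk2 was 49.9 and 35.2 FPKM with LPS and 96.7, 73.9 and 46.5 FPKM with LPS + Dex. These groups overlapped, although the rise was called (log2 0.71, SE 0.22, adjusted p = 0.011); it was not called without WT LPS + Dex replicate 1 or WT LPS replicate 3, or when only the groups compared were fitted (adjusted p = 0.20). In the labelled cells the log2 changes were -0.34 for Prkab2 (adjusted p = 0.18) and 0.21 for Camkk2 (adjusted p = 0.43). The remaining members, in WT and in the labelled cells, had log2 changes of 0.32 and 0.34 for Prkag1 (adjusted p = 0.20 and 0.11), 0.26 and 0.17 for Stk11 (0.11 and 0.27), 0.09 and 0.17 for Prkaa1 (0.84 and 0.62), and 0.03 and -0.05 for Prkab1 (0.87 and 0.75).

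Dex alone raised Prkag2 in WT, from 21.2 to 24.7 FPKM with vehicle to 46.6, 55.8 and 47.2 FPKM (log2 1.07, SE 0.17, adjusted p = 2.3e-05). In the labelled cells Prkag2 was 42.6, 31.0 and 37.1 FPKM with Dex, also above every vehicle library, with a log2 change of 0.43 (SE 0.17, adjusted p = 0.065). Among all genes the Dex and vehicle groups of 50.2% in WT and 46.7% in the labelled cells did not overlap. Without labelled Dex replicate 2 the labelled Prkag2 change was 0.54 and passed (adjusted p = 0.040), and it also passed under median centring and quantile normalization. The difference of the Dex responses between genotypes was -0.65 for Prkag2 (unadjusted p = 0.013, adjusted p = 0.19) and -0.75 for Camkk2 (unadjusted p = 0.011, adjusted p = 0.19), and 0.49 for Prkag1 (unadjusted p = 0.043, adjusted p = 0.22). None was called. With 3 of 7 members under an unadjusted 0.05, where 21.5% of all genes (2441) were, and 0 genes called by limma, these remain values. With no filter 21 genes were called, no member among them.

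Dex called 2 of 7 members in WT and 1 of 7 in the labelled cells, where 30.9% and 27.9% of all genes were called. The other WT call was Prkaa1, at 26.1, 23.2 and 19.1 FPKM with Dex against 15.9, 11.8 and 15.3 FPKM with vehicle. The groups did not overlap (log2 0.63, SE 0.23, adjusted p = 0.041), as for 50.2% of all genes. The call was lost without any one of 4 of the 6 libraries (WT Dex replicates 1 and 2, WT vehicle replicates 2 and 3) and had a highest adjusted p of 0.29. The labelled call was Prkab1, at 46.2, 38.3 and 53.6 FPKM with Dex against 33.5, 37.3 and 32.5 FPKM with vehicle (log2 0.40, SE 0.11, adjusted p = 0.0065). This call was lost without labelled Dex replicate 3, and when only the groups compared were fitted (adjusted p = 0.058). In WT the change of Prkab1 was 0.27 (adjusted p = 0.059). The change of Prkaa1 in the labelled cells was 0.23 (adjusted p = 0.52). The remaining members, in WT and in the labelled cells, had changes of 0.35 and -0.40 for Camkk2 (adjusted p = 0.17 and 0.13), -0.16 and 0.33 for Prkag1 (0.47 and 0.14), 0.20 and -0.15 for Prkab2 (0.46 and 0.60), and 0.11 and 0.10 for Stk11 (0.49 and 0.55).

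DAMPs alone called 0 of 7 members in either genotype, where 2.01% of all genes were called in WT and 4.13% in the labelled cells. At an unadjusted p under 0.05 there was 1 member in WT and 0 in the labelled cells, where 9.68% and 13.3% of all genes were. That member was Camkk2, at 68.3, 60.0 and 56.9 FPKM with DAMPs in WT against 40.01, 42.6 and 49.7 FPKM with vehicle, and at 54.5, 67.7 and 67.0 FPKM against 52.5, 46.5 and 45.1 FPKM in the labelled cells. In both genotypes every DAMPs library lay above every vehicle library, with log2 changes of 0.48 (adjusted p = 0.31) and 0.38 (adjusted p = 0.40). Among all genes the groups of 13.1% in WT and 21.1% in the labelled cells did not overlap. The log2 changes of the other 6 members lay between -0.18 and -0.03 in WT and between -0.21 and 0.04 in the labelled cells, with adjusted p-values of 0.72 or more.

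With DAMPs + Dex against DAMPs, Prkag2 and Prkab1 rose in both genotypes. Among all genes 24.3% were called in WT and 25.3% in the labelled cells, and 2 of 7 and 3 of 7 members. The groups did not overlap for 2 of 7 and 4 of 7 members, and for 34.4% and 38.8% of all genes. Prkag2 went from 26.0, 24.2 and 18.2 FPKM to 39.1, 37.0 and 47.3 FPKM in WT (log2 0.83, SE 0.17, adjusted p = 0.00051). The labelled cells went from 20.2, 24.2 and 25.5 FPKM to 46.2, 38.5 and 41.0 FPKM (log2 0.82, SE 0.17, adjusted p = 0.00056). The 2 responses of Prkag2 differed by -0.01 (95% interval -0.51 to 0.49).

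Prkab1 went from 28.4 to 31.5 FPKM to 38.8 to 45.1 FPKM in WT (log2 0.49, SE 0.11, adjusted p = 0.0011) and from 32.6 to 38.0 to 47.6 to 53.9 FPKM in the labelled cells (log2 0.50, SE 0.11, adjusted p = 0.00087). Camkk2 was 54.5, 67.7 and 67.0 FPKM with DAMPs and 42.5, 42.4 and 41.9 FPKM with DAMPs + Dex in the labelled cells, a fall (log2 -0.56, SE 0.19, adjusted p = 0.032) whose call was lost without any one of 5 of those 6 libraries (all but labelled DAMPs replicate 1). In WT its change was -0.26 (adjusted p = 0.37). Prkaa1 in the labelled cells lay at 10.7 to 16.4 FPKM with DAMPs and 20.0 to 24.0 FPKM with DAMPs + Dex. These groups did not overlap, as for 38.8% of all genes. The log2 change of Prkaa1 was 0.60 (adjusted p = 0.060, and 0.022 with median centring), and in WT it was 0.33 (adjusted p = 0.34). The remaining members had changes, in WT and in the labelled cells, of 0.34 and 0.11 for Prkag1 (adjusted p = 0.14 and 0.67), 0.20 and 0.08 for Stk11 (0.23 and 0.64), and -0.13 and -0.0045 for Prkab2 (0.70 and 0.99).

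**Figure D3:**
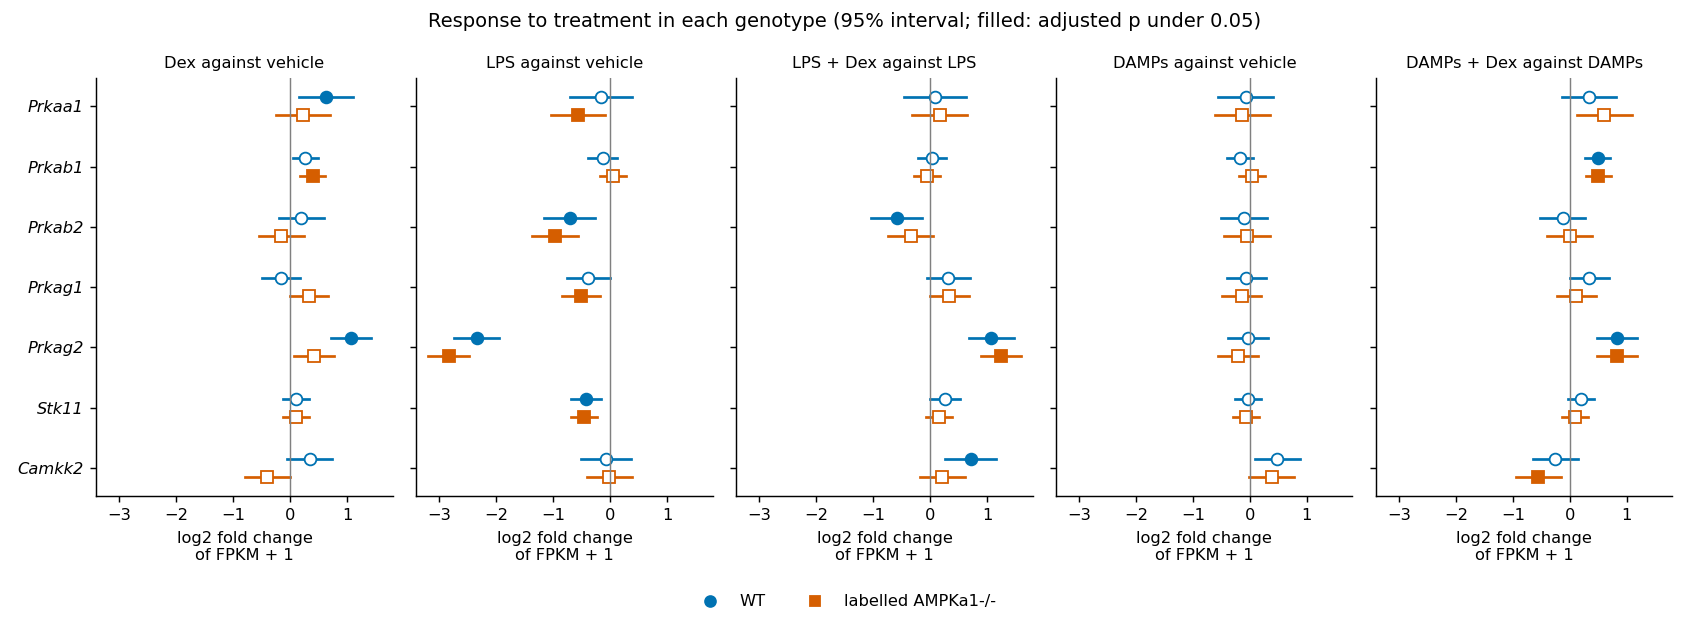
Log2 fold change of FPKM + 1 (horizontal axis) with 95% interval for 7 members in 5 treatment comparisons, in WT (circles) and in the cells labelled AMPKa1-/- (squares); filled symbols have an adjusted p under 0.05. Prkag2 falls with LPS by -2.34 and -2.84 and rises in both genotypes when Dex is added to LPS or to DAMPs.

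The share of Prkag2 among the γ1 and γ2 transcripts (FPKM of Prkag2 over Prkag1 + Prkag2) puts these values together. It was 69.3% ± 4.44 (SD, n = 3) in WT vehicle, 84.6% ± 1.49 in WT Dex, 33.1% ± 3.34 (n = 2) in WT LPS, 48.1% ± 11.7 in WT LPS + Dex and 76.2% ± 5.56 in WT DAMPs + Dex. In the labelled cells it was 69.8% ± 0.941 with vehicle, 70.7% ± 6.61 with Dex, 26.9% ± 1.60 with LPS, 44.5% ± 6.40 with LPS + Dex and 78.2% ± 5.54 with DAMPs + Dex (n = 3 each). The majority γ transcript was thus γ2 with vehicle and γ1 with LPS in every library. The third γ gene, Prkag3, averaged 0.114 FPKM in WT and 0.0868 FPKM in the labelled libraries. Among the β transcripts the Prkab2 share went from 15.5% ± 1.72 (n = 3) with vehicle to 9.98% ± 0.269 (n = 2) with LPS and 5.83% ± 1.16 (n = 3) with LPS + Dex in WT, and from 14.0% ± 1.12 to 6.30% ± 1.27 and 4.76% ± 1.69 in the labelled cells (n = 3 each). With Dex the Prkab2 share was 15.0% ± 1.14 in WT and 9.84% ± 1.72 in the labelled cells. With DAMPs it was 16.3% ± 4.48 and 13.2% ± 0.945, and with DAMPs + Dex 10.8% ± 1.16 and 9.66% ± 1.32 (n = 3 each). The shares are ratios of the tested values and carry no test of their own. The part of the antisense overlap (43.7% of exonic bases for Prkag1, 14.5% for Prkag2) in the γ shares was not tested.

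**Figure D4:**
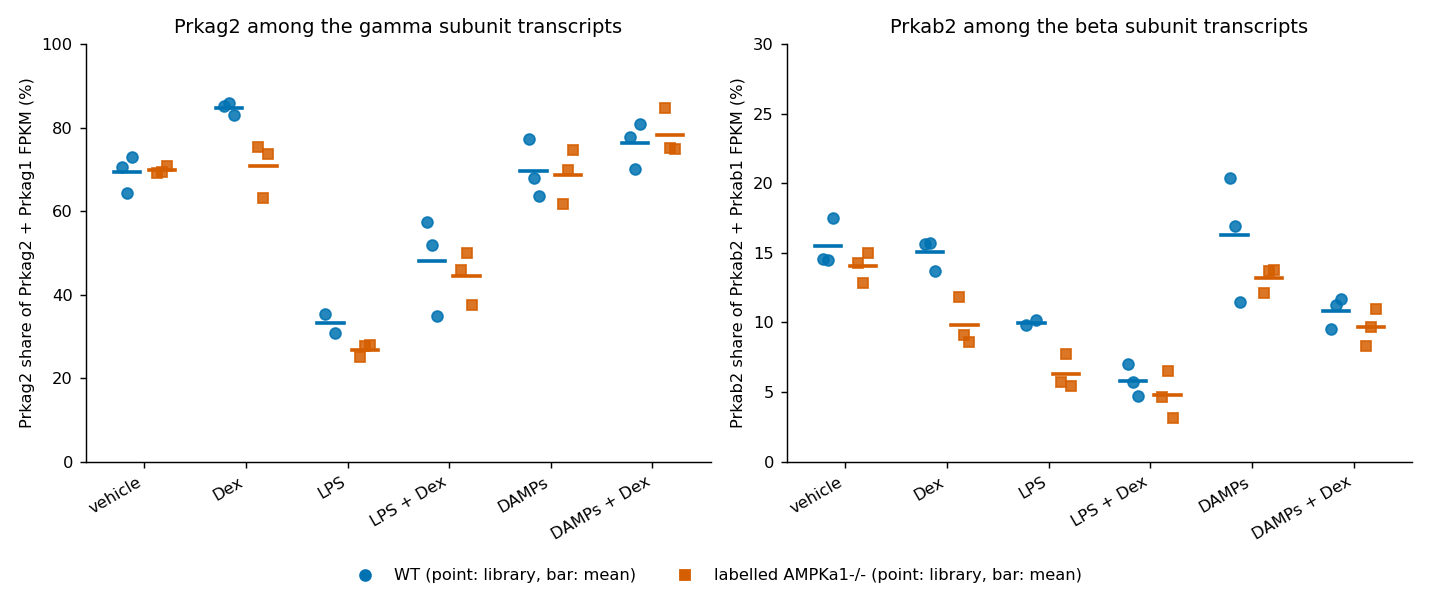
Share of Prkag2 in Prkag1 + Prkag2 FPKM (left, percent, axis 0 to 100) and of Prkab2 in Prkab1 + Prkab2 FPKM (right, percent, axis 0 to 30) in each library, with group means as bars. The γ2 share is 61.7% or more in all vehicle, Dex, DAMPs and DAMPs + Dex libraries and at most 35.5% in the LPS libraries.

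Likeness across the 17 WT libraries was described by Pearson's r of log2(FPKM + 1) against 11423 genes, with no test, since all points share libraries and treatments. Prkag2 was most like Ypel2 (r = 0.991), Peli2 (0.990) and Sgpp1 (0.990). Prkab2 was most like Gnaq (0.972), Tsc1 (0.968) and Dnajb14 (0.963), and Prkaa1 was most like Ppp4r3b and Ppp6r3 (both 0.970) and Atp2c1 (0.964). For Stk11 the nearest were 2510039O18Rik (0.947), Dalrd3 (0.939) and Kmt5c (0.938). For Prkag1 they were Mtx1 (0.927), Siva1 (0.919) and Rpl8 (0.916), for Prkab1 Chil3 (0.901), Wdr33 (0.899) and Ptpn3 (0.893), and for Camkk2 Ikzf1 (0.886), Pld1 and Nek9 (both 0.867). Among the members themselves the highest r was that of Prkag2 and Stk11 (0.842) and the lowest that of Prkaa1 and Prkag1 (-0.295).

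Around these genes, 63 other genes of the pathway were grouped as partners and other upstream kinases, regulators, AMPK-related kinases, substrates, and regulators of mitochondrial and lysosomal biogenesis. The last includes targets that AMPK reaches through other proteins. Between genotypes, averaged over treatments, 1 of 9 regulators and 2 of 24 substrates tested were called, all lower in the labelled cells, and 0 of 6 partners, 0 of 10 AMPK-related kinases and 0 of 6 biogenesis regulators, where 2.47% of all genes were called and 1.19% were lower. The list medians ran from -0.05 to 0.05, against -0.03 for all genes.

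Txnip, an inhibitor of glucose uptake that AMPK marks for degradation, had set means of 377, 362 and 324 FPKM in WT and 195, 196 and 172 FPKM in the labelled sets (LPS left out). The sets do not overlap (log2 -0.78, SE 0.07, limma adjusted p = 0.0028), and it was called under all 44 alternatives that give a value. Fnip2, a folliculin partner that binds AMPK, had set means of 107, 88.5 and 87.6 FPKM in WT and 53.2, 52.3 and 57.8 FPKM in the labelled sets (log2 -0.65, SE 0.11, adjusted p = 0.030), and lost its call in 8 of 44, among them those without labelled Dex replicate 2 (adjusted p = 0.058) or WT Dex replicate 2 (adjusted p = 0.14). Rptor, the mTORC1 scaffold raptor, had set means of 31.9, 35.9 and 31.0 FPKM in WT and 19.4, 22.6 and 22.4 FPKM in the labelled sets (log2 -0.50, SE 0.09, adjusted p = 0.042), and lost it in 19 of 44, among them those without labelled Dex replicate 2 (adjusted p = 0.11) or WT Dex replicate 2 (adjusted p = 0.062).

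LPS called 9 of 9 regulators in both genotypes, 8 lower and 1 higher, with a median log2 change of -1.0003 in WT and -1.01 in the labelled cells, against -0.19 and -0.30 for all genes, of which 55.7% and 64.3% were called. Sesn1, a stress-induced sestrin that promotes AMPK activity, was 108 ± 2.36 FPKM (SD, n = 3) with vehicle and 9.42 ± 0.0692 FPKM (SD, n = 2) with LPS in WT (log2 -3.38, SE 0.19, adjusted p = 1.9e-14), and Fnip2 was 106 ± 21.2 and 17.4 ± 4.03 FPKM (log2 -2.54, SE 0.26, adjusted p = 2.4e-09). Of the LKB1 partners, Cab39 (MO25α, log2 -0.82, adjusted p = 0.00020) and Stradb (a STRAD pseudokinase, log2 -0.90, adjusted p = 2.7e-06) fell in WT. Of the partners 3 of 6 fell in WT and 4 of 6 in the labelled cells, and 0 rose, where 35.8% and 44.1% of all genes fell.

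Substrates moved both ways with LPS: 10 rose and 12 fell of 24 in WT, and 8 rose and 11 fell in the labelled cells, where 19.9% of all genes rose and 35.8% fell in WT and 20.2% and 44.1% in the labelled cells. Eef2k, the kinase of elongation factor 2, fell from 19.9 ± 3.56 to 1.05 ± 0.36 FPKM in WT (log2 -3.35, SE 0.19, adjusted p = 2.0e-14; n = 3 and 2). Of the AMPK-related kinases, which LKB1 also phosphorylates, 4 of 10 fell and 1 rose in WT, led by Nuak1 (log2 -2.01, adjusted p = 1.1e-09) and Snrk (log2 -1.38, adjusted p = 1.2e-07). Of the biogenesis regulators 3 of 6 fell and 1 rose, led by Tfeb, the lysosomal transcription factor (log2 -2.29, adjusted p = 5.9e-13), and Tfe3 (log2 -0.73, adjusted p = 1.3e-05).

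Dex raised 5 of 10 AMPK-related kinases in WT and 3 of 10 in the labelled cells, and lowered none, where 15.9% and 11.9% of all genes rose and 14.9% and 16.0% fell. Sik1, a salt-inducible kinase, was 3.82 ± 1.07 FPKM with vehicle and 33.1 ± 17.8 FPKM with Dex in WT (log2 2.71, SE 0.37, adjusted p = 2.7e-06), and Mark3 rose by 0.70 (adjusted p = 9.0e-05). Of the substrates 6 of 24 rose and 1 fell in WT. Pfkfb3, which makes the activator of phosphofructokinase, rose from 25.0 ± 3.21 to 118 ± 9.22 FPKM (log2 2.195, SE 0.30, adjusted p = 2.1e-06), and Rptor rose by 1.17 (adjusted p = 1.8e-05). Of 9 regulators 3 rose and 2 fell, with Flcn (folliculin) at 0.72 (adjusted p = 0.0029) and Sesn1 at -0.97 (adjusted p = 8.6e-05). Stradb was the 1 partner of 6 to rise (0.34, adjusted p = 0.037). Ppargc1b, a coactivator of mitochondrial genes, rose (log2 1.15, adjusted p = 0.00070) and Tfeb fell (log2 -0.43, adjusted p = 0.020). The Stradb and Tfeb calls were lost in 11 and 5 of 49 alternatives, and those of Flcn (adjusted p = 0.087) and Ppargc1b (adjusted p = 0.058) without set WT2. In the labelled cells 0 regulators rose and 1 of 9 fell, 3 of 24 substrates rose and 2 fell, 1 of 6 partners rose, and 0 biogenesis regulators rose and 1 of 6 fell. The interaction of Dex with genotype was called for 0 genes of these lists (limma, Benjamini-Hochberg). At an unadjusted p under 0.05 it passed for 2 of 9 regulators, 5 of 24 substrates, 1 of 6 biogenesis regulators, 1 of 10 AMPK-related kinases and 0 of 6 partners, where 21.5% of all genes did.

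With LPS + Dex against LPS in WT, Sesn1 rose by 1.59 (adjusted p = 1.4e-07), the 1 regulator of 9 called, where 16.6% of all genes rose and 17.5% fell. Tfeb rose by 1.195 (adjusted p = 4.2e-07) and Ppargc1b by 1.84 (adjusted p = 4.5e-06). They were among 4 of 6 biogenesis regulators that rose in WT (4 of 6 in the labelled cells, where 19.3% of all genes did). Pfkfb3 rose by 2.11 (adjusted p = 1.1e-05), among 7 substrates higher and 1 lower of 24. Brsk1 (1.15, adjusted p = 1.7e-06) and Sik1 (1.42, adjusted p = 0.0092) led the 4 of 10 AMPK-related kinases that rose. Cab39 rose by 0.47 (adjusted p = 0.036) and its paralogue Cab39l fell (log2 -0.43, adjusted p = 0.037), calls lost in 11 and 9 of 49 alternatives. The Sik1 call was lost in 2 of 49, without WT LPS replicate 2 (adjusted p = 0.11) and without set WT2 (adjusted p = 0.17).

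DAMPs alone called 1 of the 55 pathway genes tested in WT and 0 in the labelled cells, where 2.01% and 4.13% of all genes were called. That gene was Txnip, at 486 ± 47.7 FPKM with vehicle and 296 ± 19.5 FPKM with DAMPs (log2 -0.71, SE 0.17, adjusted p = 0.020, n = 3 and 3), a call lost in 7 of 49 alternatives. With DAMPs + Dex against DAMPs in WT, Sik1 (2.70), Pfkfb3 (2.27), Rptor (1.44), Mark3 (0.73), Ppargc1b (0.71), Nrf1 (0.42) and Ppm1a (0.37) rose and Sesn1 (-0.82) fell, with adjusted p-values from 6.95e-07 for Rptor to 0.033 for Ppargc1b. The calls of Ppargc1b and Ppm1a were lost in 8 of 48 and 7 of 49 alternatives, and that of Nrf1 in 1 of 49. Of the lists, 3 of 10 AMPK-related kinases rose and 0 fell, 5 of 24 substrates rose and 3 fell, 1 of 9 regulators rose and 1 fell, 2 of 6 biogenesis regulators rose and 1 fell, and 0 of 6 partners were called. Among all genes 11.7% rose and 12.6% fell.

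**Figure D5:**
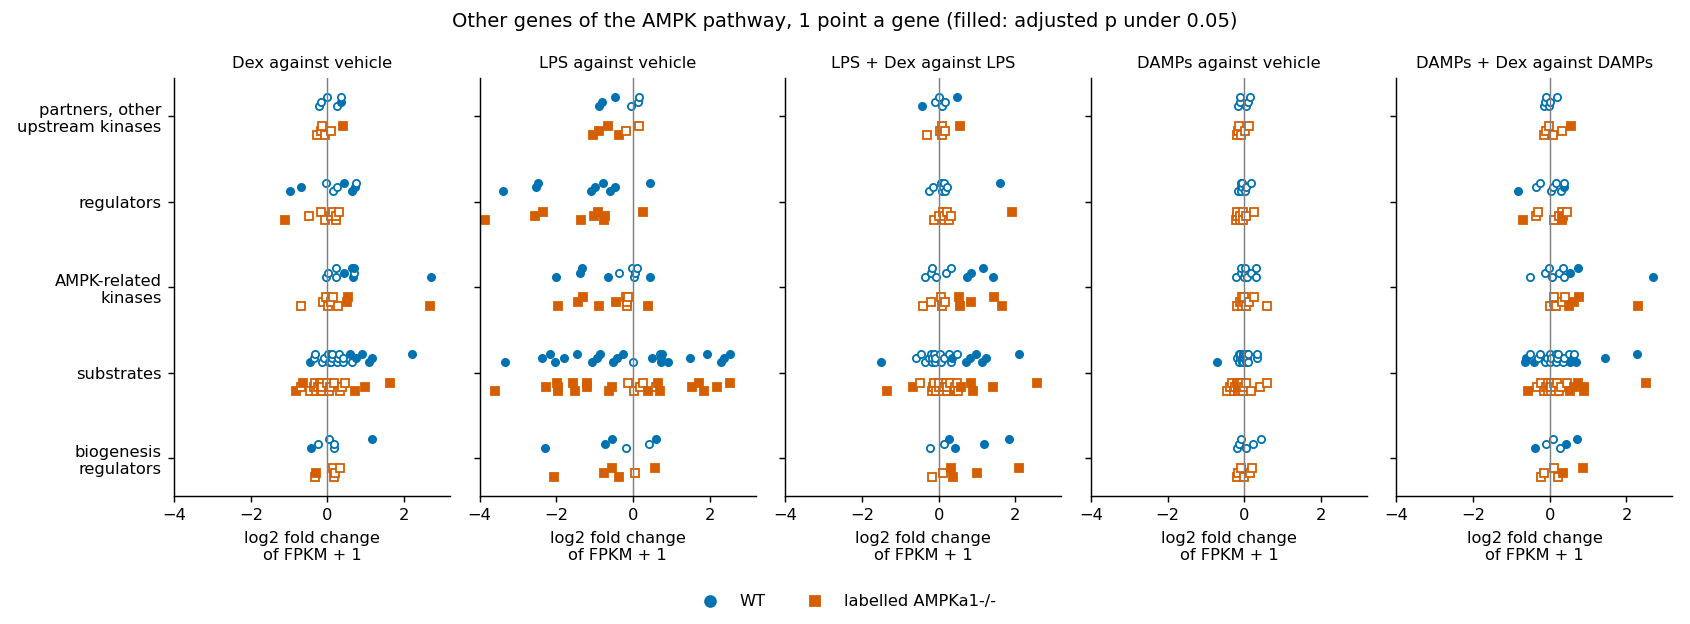
Log2 fold change of FPKM + 1 (horizontal axis) of every other pathway gene tested, 1 point a gene, by list (rows) and treatment comparison (panels), in WT (circles) and labelled AMPKa1-/- (squares); filled points have an adjusted p under 0.05. With LPS all 9 regulators are filled and 8 lie below 0, and with DAMPs the filled point is Txnip in WT.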

How the data were processed

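The authors deposited 1 FPKM file for each library, with 47069 Ensembl gene identifiers. The submitters' processing notes name Bowtie2 2.2.3, TopHat2 2.0.12, HTSeq 0.6.1, DESeq2 and the build GRCm38 (mm10), without roles. How strand, filters and scaling were handled is not stated there. Symbols (46488 identifiers) and positions were taken from GENCODE M21 (GRCm38). FPKM values are not counts. Library totals were recovered from the steps that 1 fragment makes in low values, and among genes with fewer than 10 fragments 55.5% to 63.9% were whole to within 0.001, so no count test was run. Prkaa1 and Prkaa2 came out whole within 0.01 in all 35 libraries.

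Genes with a mean of at least 1 FPKM over the libraries (11354) were tested on log2(FPKM + 1) with limma 3.58.1 in R 4.3.3 (12 groups fitted together, trended empirical Bayes, 2-sided, Benjamini-Hochberg within each comparison, called under 0.05). The averaged genotype difference used the means of 6 sets over 5 treatments. There were 22 comparisons. The step was tested on simulated data. Tables and figures used Python 3.11.15.

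The members and lists were chosen with earlier results of these data known. Of the other lists, up to 3 called genes with the largest change in the averaged comparison and up to 2 in each WT response are named. One gene that this rule names is not reported here. Replicates of a group correlated at 0.967 to 0.993. Among comparisons with 3 pairs, same-numbered libraries deviated together (every r over 0.1) in labelled Dex against vehicle (0.217 to 0.400), LPS against vehicle (0.124 to 0.316) and LPS + Dex against LPS (0.356 to 0.375), and between genotypes in LPS + Dex (0.119 to 0.515), which is a hint from the data. The alternatives were another pseudocount (0.1), no filter, a minimum mean of 5 FPKM, median centring, quantile normalization, only the groups compared, a replicate block, the set as a random block, independent libraries, and leaving out each library or set.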

Additional observations from a re-analysis of the deposited data

How the results depend on the processing

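The members showed no called difference between genotypes on average under most alternatives (0 of 7). Taking libraries as independent called 2 (Prkab1 0.15 and Stk11 0.13), and leaving out single libraries or sets gave 0 to 1, the 1 being Camkk2 without WT LPS + Dex replicate 3 (-0.25; range -0.27 to -0.16). The number of all genes called there was 280, and 37 with no filter, 1485 with the set as a random block, 2432 with independent libraries, and 46 to 524 when single libraries or sets were left out. With the replicate number as a block it was 174. The block called 0 members on average and changed no call where same-numbered libraries deviated together; elsewhere it added Prkag1 with LPS in WT (-0.45, adjusted p = 0.038) and Prkaa1 with DAMPs + Dex in the labelled cells (0.60, adjusted p = 0.029). Within treatments the count of member calls between genotypes was 2, with 4 under median centring (Stk11 and Prkab1 in Dex added) and 0 to 4 when single libraries or sets were left out. Quantile normalization added Prkag2 in Dex (-0.38, limma adjusted p = 0.031). Interactions counted 0, and 0 to 1 when these were left out (Camkk2 with Dex, without set WT3). With no filter (27414 genes) the interactions called 21 (Dex), 118 (LPS), 75 (LPS + Dex), 2 (DAMPs) and 9 (DAMPs + Dex) of all genes, where the filtered fit called 0. The causes were not tested. With 3 libraries a group, exact tests of set means cannot pass 0.05, and Prkaa2 rests on 0 to 21 fragments a library.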
